A study of Mus musculus with 6 samples.

Results

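BAF complexes are ATP-dependent chromatin remodellers that slide and evict nucleosomes and are built from interchangeable subunits. When neural progenitors leave the cell cycle and become neurons, several subunits are replaced by paralogs: Actl6a by Actl6b, Ss18 by Ss18l1, Phf10 by Dpf1 or Dpf3, while the balance of the scaffold subunits moves from Smarcc1 towards Smarcc2. In neurons miR-124, together with miR-9*, is known to repress Actl6a through its 3′ untranslated region, and the switch is needed for dendrite growth. The genes described here are these 9 together with Dpf2, the widely expressed relative of Dpf1 and Dpf3. All probe sets that the platform annotation assigned to one of the 10 genes were taken, each on its own, which gave 22 of the 45101 probe sets on the array, for 10 of the 18194 genes that had a probe set of their own.

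Total RNA was measured in CAD, a catecholaminergic mouse neuroblastoma cell line, in 2 groups of 3 biological replicates. One group had received the RIPmiR-124a-2 plasmid, which expresses a precursor of miR-124, and the other the empty RI vector. Both were grown in the same kind of serum-supplemented medium. Each array gave 1 log2 signal per probe set, made by the authors with RMA, which corrects background, normalizes between arrays and summarises the probes of a set. The share of transfected cells and the time after transfection are not given in the sources used here, and in a bulk measurement a lower signal in every cell and its loss from some cells cannot be told apart.

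The arrays fell into 2 sets by the spread of their values. Plasmid replicates 1 and 2 and vector replicate 1 spanned an interquartile range of only 3.06 to 3.10 log2 units and are called narrow arrays here, and the other 3 spanned 3.26 to 3.35 and are called wide arrays. The spiked poly-A controls read 5.97 and 5.96 on plasmid and vector replicate 1, against 5.57 to 5.71 on the remaining arrays. Of 16 markers listed for a catecholaminergic neuronal line, 15 were measured, and their brightest probe sets averaged 8.80 to 8.89 per plasmid array and 8.62 to 8.68 per vector array. Dbh, which makes noradrenaline, and the lineage factors Phox2a and Hand2 were bright. Th, Ddc and Gata3 of the same list averaged 6.77, 5.75 and 5.43 with the plasmid and 6.32, 5.23 and 5.28 with the vector. Slc18a1 and Slc18a2, the vesicular monoamine transporters, averaged 4.95 and 3.86 with the plasmid and 4.95 and 3.99 with the vector. Slc18a2 was near the 3.50 of unspiked bacterial controls. Markers of astrocytes, oligodendrocytes, fibroblasts, macrophages and endothelium (19 genes measured) averaged 4.09 to 5.14 per list and plasmid array and 4.12 to 5.08 per list and vector array. In limma, 0 of their 47 probe sets passed, and 0 had an unadjusted p under 0.05 (8.18% over all probe sets). Of the 28 probe sets of the neuronal line markers 0 passed, 6 had an unadjusted p under 0.05 and 7 did not overlap between groups (13.2% over all probe sets), and 12 of the 15 brightest were above 0 in log2 fold change. The part of these markers in the other results was not tested.

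Smarcc1 carried the only change among the exchanged subunits that passed the test. In 1 of its 4 probe sets it fell 1.80-fold with the miR-124a-2 plasmid, and a second probe set had a similar difference that did not pass. Its paralog Smarcc2 had values 1.28-fold higher, without overlap between groups, which did not pass. Groups were compared with limma over all probe sets, with Benjamini-Hochberg adjustment and a threshold of 0.05. Of the 22 probe sets 1 passed, against 0.268% of all probe sets on the array (121 probe sets, 27 higher and 94 lower).

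**Figure D1:**
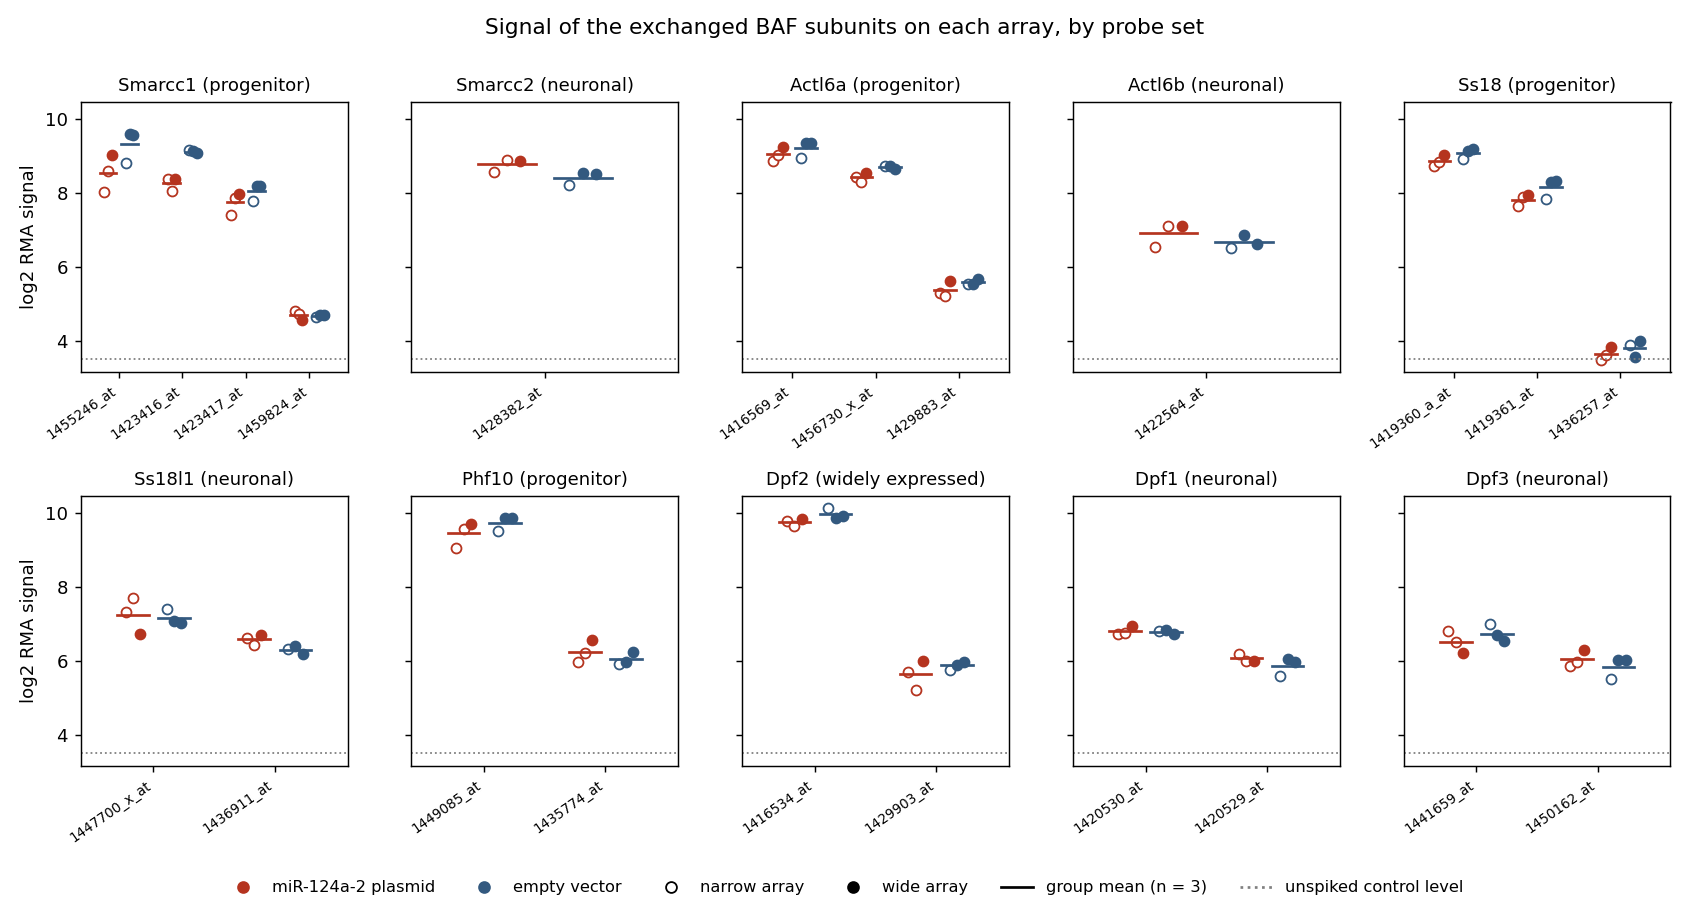
Log2 RMA signal of all 22 probe sets (x axis, by gene) on each of the 6 arrays, with the 3 miR-124a-2 plasmid arrays left of the 3 empty vector arrays; bars are group means, open symbols are narrow arrays, and the dotted line is the 3.50 of unspiked controls. Smarcc1 1423416_at lies between 8.06 and 8.39 with the plasmid and between 9.09 and 9.17 with the vector, whereas most other probe sets overlap between groups.

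The scaffold subunits come first. Smarcc1 (BAF155) and Smarcc2 (BAF170) are related proteins that hold the core of the complex together, and Smarcc1 predominates in embryonic stem cells. Probe set 1423416_at of Smarcc1 read 8.39, 8.06 and 8.38 in plasmid replicates 1, 2 and 3, against 9.17, 9.13 and 9.09 in vector replicates 1, 2 and 3. Every plasmid array was below every vector array, and the vector arrays lay close together. The means were 8.28 ± 0.19 with the plasmid and 9.13 ± 0.04 with the vector (SD, n = 3 each), and the log2 fold change of Smarcc1 was -0.85 (SE 0.11, 95% interval -1.11 to -0.59, limma adjusted p = 0.0380). The difference was -0.94 among narrow arrays and -0.73 among wide ones. The call held with the array set as a block (-0.84, limma adjusted p = 0.0224, a fit in which 1.13% of all probe sets passed). The call did not hold without any 1 of plasmid replicates 1 and 2 or the 3 vector arrays. The log2 fold change stayed between -0.91 and -0.74. The limma adjusted p was 0.123, 0.0924, 0.112, 0.259 and 0.218 in that order. In those fits 0, 12, 0, 0 and 0 probe sets passed on the whole array. Without plasmid replicate 3 the limma adjusted p was 0.0291, and 352 probe sets passed. Median centring gave a limma adjusted p of 0.0646, and 39 probe sets passed.

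The other Smarcc1 probe sets did not pass. The brightest, 1455246_at, read 8.04, 8.59 and 9.03 in plasmid replicates 1, 2 and 3, against 8.82, 9.60 and 9.58 in vector replicates 1, 2 and 3. Here the groups overlapped, because vector replicate 1 was lower than plasmid replicate 3, and the arrays of each group were far apart. Its log2 fold change was -0.78 (SE 0.28, limma adjusted p = 0.469), and narrow arrays alone gave -0.51 and wide arrays -0.57. It passed with the replicate 1 arrays against the others as a block (limma adjusted p = 0.0483, a fit in which 0.752% of all probe sets passed) and not with the array set as a block (-0.54, limma adjusted p = 0.157). Probe set 1423417_at, annotated to the same accession as 1423416_at, had -0.30 (95% interval -0.72 to 0.11), and 1459824_at, the dimmest at 4.70 with the plasmid and 4.67 with the vector, had 0.03 (95% interval -0.20 to 0.26). Over the 6 arrays, 1423417_at followed 1455246_at (Pearson r = 0.96) more closely than 1423416_at (r = 0.46). With the 4 probe sets averaged, Smarcc1 had a log2 fold change of -0.48 and did not pass (limma adjusted p = 0.153).

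Smarcc2 has 1 probe set. It read 8.58, 8.89 and 8.89 in plasmid replicates 1, 2 and 3, against 8.21, 8.54 and 8.52 in vector replicates 1, 2 and 3. Every plasmid array was above every vector array, with replicate 1 the lowest of each group. The log2 fold change was 0.36 (SE 0.13, 95% interval 0.05 to 0.67, limma adjusted p = 0.490). Narrow arrays gave 0.53 and wide arrays 0.35, and Smarcc2 did not pass under any of the 18 alternatives run (0.26 to 0.47, limma adjusted p from 0.101 to 0.889).

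Actl6a (BAF53a) and Actl6b (BAF53b) are actin-related proteins that dock on the ATPase subunit. None of their 4 probe sets passed. Its brightest probe set, 1416569_at, read 8.86, 9.03 and 9.26 in plasmid replicates 1, 2 and 3, against 8.95, 9.36 and 9.36 in vector replicates 1, 2 and 3. The groups overlapped, and the narrow array was the lowest of the vector group. The log2 fold change was -0.17 (95% interval -0.53 to 0.18, limma adjusted p = 0.884). The groups did not overlap in 1456730_x_at, which averaged 8.44 ± 0.12 with the plasmid and 8.71 ± 0.05 with the vector (log2 fold change -0.27, 95% interval -0.50 to -0.04, limma adjusted p = 0.480). By the array maker's naming, a set ending in x_at can hold probes that match other transcripts. The dimmer 1429883_at had -0.21, so all 3 Actl6a probe sets were below 0, by amounts equal to 1.13-fold to 1.21-fold.

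Actl6b, the neuron-restricted form, was measured well above background in the vector group, by 1 probe set. It read 6.54, 7.12 and 7.12 in plasmid replicates 1, 2 and 3, against 6.50, 6.87 and 6.61 in vector replicates 1, 2 and 3. Plasmid replicates 2 and 3 were above all vector arrays and plasmid replicate 1 was not. The log2 fold change was 0.26 (95% interval -0.15 to 0.67, limma adjusted p = 0.824), and narrow arrays gave 0.33 and wide arrays 0.37.

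Ss18 is the progenitor form of a coactivator subunit, and Ss18l1 (CREST) is its calcium-responsive neuronal counterpart. None of their 5 probe sets passed. Ss18 had log2 fold changes of -0.20 in its brightest probe set 1419360_a_at, -0.33 in 1419361_at and -0.17 in 1436257_at, the last at 3.64 with the plasmid and 3.80 with the vector and so barely above the control level. The 2 bright Ss18 probe sets moved together over the arrays (r = 0.94), with limma adjusted p-values of 0.783 and 0.660. Ss18l1 probe set 1436911_at read 6.61, 6.42 and 6.71 in plasmid replicates 1, 2 and 3, against 6.33, 6.39 and 6.20 in vector replicates 1, 2 and 3. Every plasmid array was above every vector array, the closest being plasmid replicate 2 and vector replicate 2. Its log2 fold change was 0.28 (95% interval 0.02 to 0.53, limma adjusted p = 0.556). The brighter Ss18l1 probe set, 1447700_x_at, had 0.07 with plasmid arrays from 6.72 to 7.70 and vector arrays from 7.03 to 7.41. It was not correlated with 1436911_at in the same direction (r = -0.30).

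Phf10 (BAF45a), Dpf1 (BAF45b), Dpf3 (BAF45c) and Dpf2 (BAF45d) are related subunits with PHD fingers, modules that read histone tails. None of their 8 probe sets passed. Phf10, the progenitor form, had opposite signs in its pair of probe sets, with log2 fold changes of -0.29 in the brighter 1449085_at (95% interval -0.72 to 0.14) and 0.21 in 1435774_at (95% interval -0.17 to 0.58). In 1449085_at plasmid replicate 1 read 9.05, well under the 9.59 and 9.73 of plasmid replicates 2 and 3, and the vector arrays read 9.52, 9.87 and 9.86. Vector replicate 1 was likewise the lowest of its group.

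Dpf2 averaged 9.76 ± 0.10 with the plasmid and 9.99 ± 0.14 with the vector in its brighter probe set 1416534_at. Its arrays read 9.79, 9.65 and 9.84 in plasmid replicates 1, 2 and 3, against 10.15, 9.89 and 9.94 in vector replicates 1, 2 and 3, and the groups did not overlap. The log2 fold change was -0.23 (95% interval -0.48 to 0.02, limma adjusted p = 0.664), and narrow arrays gave -0.42 where wide arrays gave -0.07. The dimmer Dpf2 probe set, 1429903_at, had -0.25, with -0.32 from narrow arrays and 0.06 from wide arrays.

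Dpf1 had log2 fold changes of 0.01 (95% interval -0.21 to 0.24) in 1420530_at and 0.19 (95% interval -0.13 to 0.51) in 1420529_at. For Dpf3 the probe sets disagreed, with -0.23 (95% interval -0.62 to 0.17) in 1441659_at and 0.20 (95% interval -0.20 to 0.60) in 1450162_at. These Dpf3 probe sets ran opposite to each other over the 6 arrays (r = -0.92), so the arrays give no single direction for Dpf3.

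**Figure D2:**
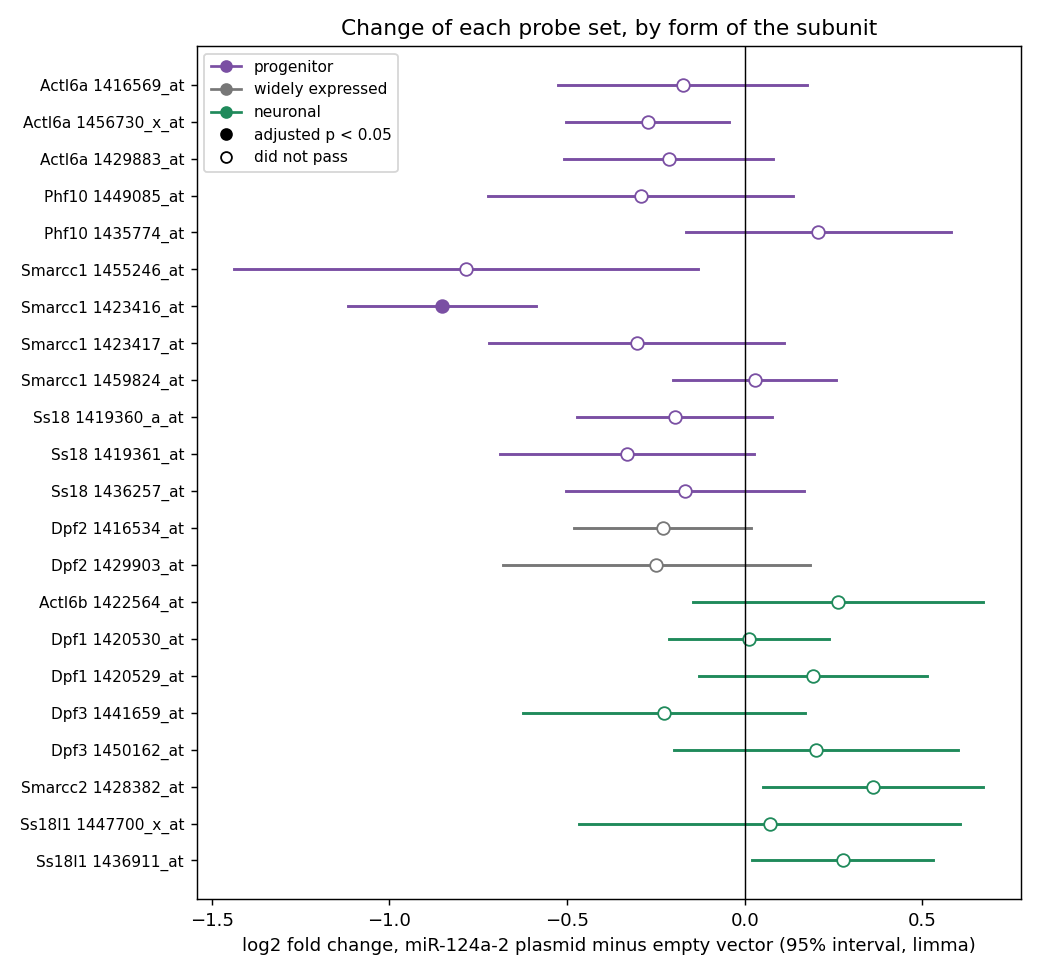
Log2 fold change of each probe set (miR-124a-2 plasmid minus empty vector, x axis) with its 95% interval from limma, grouped by the form of the subunit; filled symbols passed at an adjusted p under 0.05. Smarcc1 1423416_at at -0.85 is the only filled symbol, 10 of 12 progenitor probe sets lie below 0 and 7 of 8 neuronal probe sets lie above 0.

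Sorted by the form of the subunit, most point estimates of progenitor forms were below 0 and most of neuronal forms above 0. Of the 12 probe sets of the progenitor forms Actl6a, Phf10, Smarcc1 and Ss18, 10 had a log2 fold change below 0, 2 above 0 and the median was -0.24. Of the 8 probe sets of the neuronal forms Actl6b, Dpf1, Dpf3, Smarcc2 and Ss18l1, 7 were above 0, 1 below 0 and the median was 0.20. With only the brightest probe set per gene, 4 of 4 progenitor genes were below 0 (median -0.24). By the same choice 4 of 5 neuronal genes were above 0, with a median of only 0.07. Both Dpf2 probe sets were below 0. Over all probe sets of the array 49.3% were below 0 and the median was 0.00. Apart from Smarcc1 1423416_at, 21 of the 22 did not pass, and probe sets of a gene share its transcripts, so these counts describe the estimates and are no test.

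Values of the groups did not overlap in 5 of the 22 probe sets (22.7%), against 13.2% of all probe sets. Lower with the plasmid were Smarcc1 1423416_at, Actl6a 1456730_x_at and Dpf2 1416534_at, 3 of 22 against 6.96% over the array. Higher with the plasmid were Smarcc2 1428382_at and Ss18l1 1436911_at, 2 of 22 against 6.27% over the array. Without adjustment, p was under 0.05 for 5 of the 22 and for 8.18% of all probe sets. With so few members, these shares are not set apart from the background by any test.

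Within the narrow arrays, 10 of 12 progenitor probe sets were below 0 (median -0.17) and 6 of 8 neuronal probe sets were above 0 (median 0.26). Within the wide arrays the counts were 9 of 12 (median -0.13) and 5 of 8 (median 0.21). Over all probe sets 52.5% were below 0 within the narrow arrays and 52.7% within the wide arrays. Between same-numbered arrays, for replicates 1, 2 and 3, progenitor probe sets were below 0 in 10, 9 and 11 of 12. Neuronal probe sets were above 0 in 5, 4 and 6 of 8 there, and 49.6% to 50.9% of all probe sets were below 0. With the brightest probe set per gene, 2, 3 and 3 of 5 neuronal genes were above 0 there. All 4 progenitor genes were below 0 in each replicate by that choice. The narrow values rest on vector replicate 1 alone and the wide values on plasmid replicate 3 alone. Vector replicate 1 was itself below both other vector arrays in 8 of the 12 progenitor probe sets and in 13 of all 22, against 34.2% over the array. The part of this difference between arrays in the comparison of groups was not tested beyond the within-set values and the blocks.

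**Figure D3:**
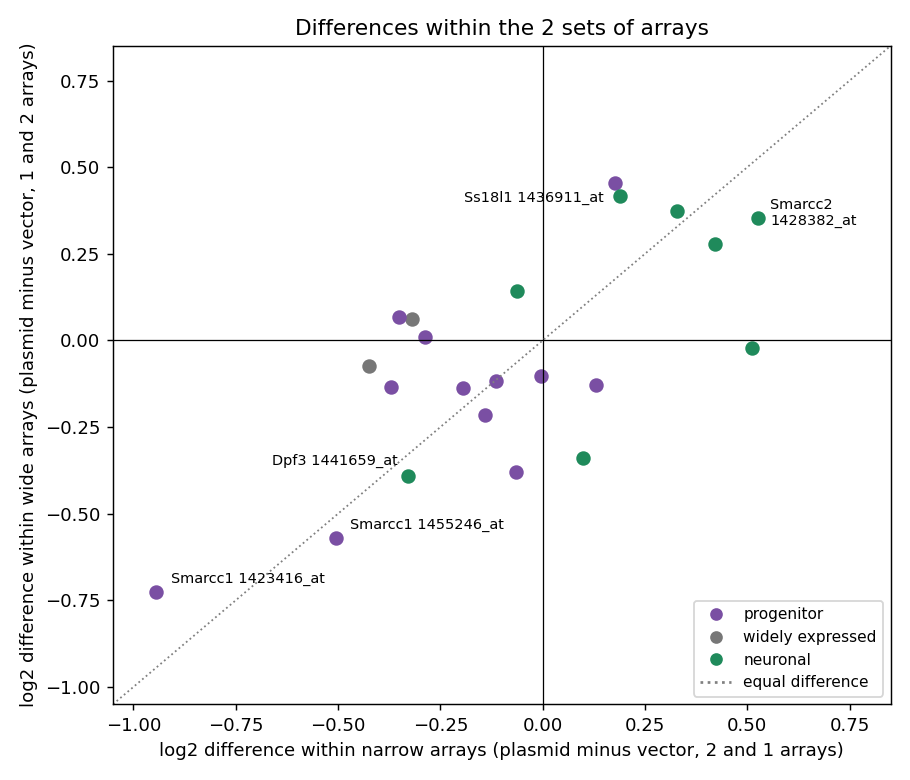
Log2 difference between plasmid and vector arrays within the narrow arrays (x axis, plasmid replicates 1 and 2 minus vector replicate 1) and within the wide arrays (y axis, plasmid replicate 3 minus the mean of vector replicates 2 and 3) for the 22 probe sets, coloured by form, with equal differences on the dotted line. Smarcc1 1423416_at at -0.94 and -0.73 and Smarcc2 at 0.53 and 0.35 keep their sides. Several others change sign, among them Dpf1 1420529_at at 0.51 and -0.02 and Ss18l1 1447700_x_at at 0.10 and -0.34.

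The exchange itself concerns the balance of paralogs, and the log2 ratio of the neuronal over the progenitor gene was followed array by array, set to a mean of 0 over the vector arrays. The shift of a ratio shows unequal change of the pair and not which of them changed. For Smarcc2 over Smarcc1, from the brightest probe sets, the shift was 1.45, 1.22 and 0.77 in plasmid replicates 1, 2 and 3, against 0.30, -0.15 and -0.15 in vector replicates 1, 2 and 3. All plasmid arrays were above all vector arrays, by a mean of 1.15 (SD 0.34 with the plasmid and 0.26 with the vector, n = 3 each). Narrow arrays alone gave a shift of 1.03 and wide arrays one of 0.92. With the 4 Smarcc1 probe sets in turn it ran from 0.33 to 1.21, and the groups did not overlap in 3 of the 4. How often ratios of other probe sets over the array lack overlap was not computed.

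For Actl6b over Actl6a the shift was 0.24, 0.65 and 0.42 in plasmid replicates 1, 2 and 3, against 0.12, 0.07 and -0.19 in vector replicates 1, 2 and 3. The groups did not overlap, but plasmid replicate 1 was close to vector replicate 1. The mean shift was 0.44, narrow arrays gave 0.33 and wide arrays 0.47, and with the other Actl6a probe sets it was 0.48 and 0.54 with overlapping groups. For Ss18l1 over Ss18, from the brightest probe sets 1447700_x_at and 1419360_a_at, the groups overlapped (mean 0.27, SD 0.61 with the plasmid). Plasmid replicate 3 at -0.42 was below every vector array. Over all 6 combinations of their probe sets the mean ran from 0.24 to 0.61.

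For the PHD finger subunits the direction of the shift against Phf10 depended on the probe set. Dpf1 over Phf10 had a mean shift of 0.30 from the brightest probe sets and -0.20 to 0.48 over 4 combinations. Dpf3 over Phf10 had 0.07, with -0.43 to 0.49 over 4 combinations. For each of these ratios over Phf10 the groups did not overlap in 1 of the 4 combinations. Against Dpf2 the mean shifts were 0.24 for Dpf1 and 0.00 for Dpf3 from the brightest probe sets, each with overlapping groups. Over 4 combinations each, these ran from 0.24 to 0.44 for Dpf1 and from 0.00 to 0.45 for Dpf3. The groups did not overlap in 0 of the 4 for Dpf1 and in 1 of the 4 for Dpf3.

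**Figure D4:**
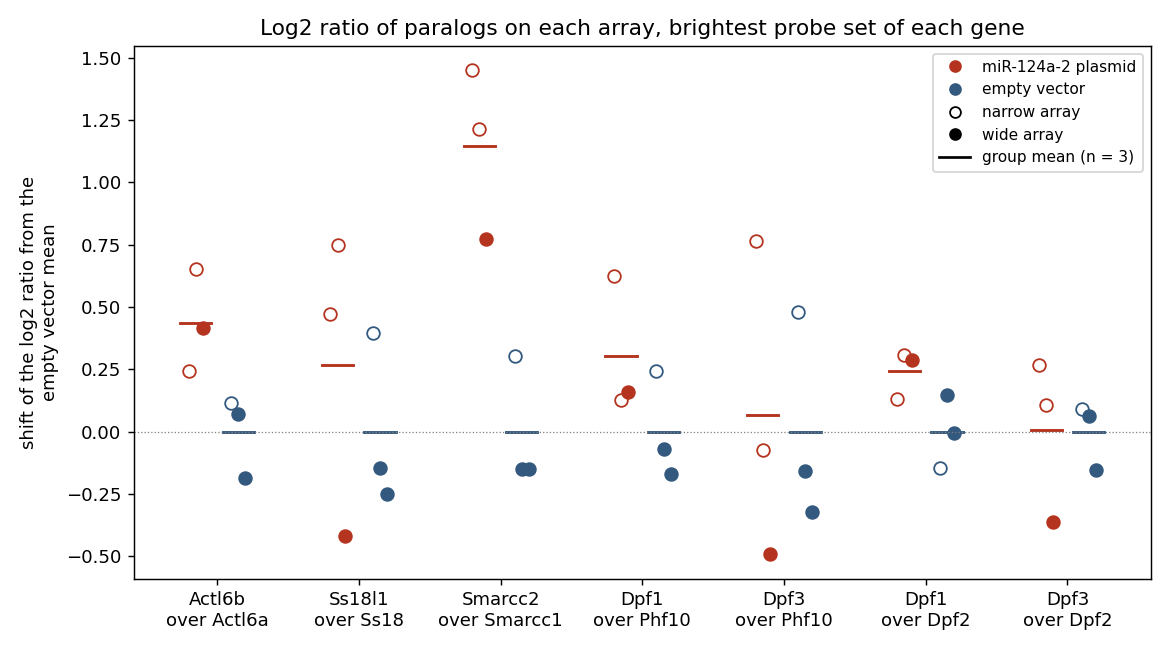
Shift of the log2 ratio of each neuronal subunit over its counterpart from the empty vector mean (y axis), for the brightest probe set of each gene; the 3 plasmid arrays stand left of the 3 vector arrays, bars are group means and open symbols are narrow arrays. Smarcc2 over Smarcc1 lies at 0.77 to 1.45 with the plasmid and at -0.15 to 0.30 with the vector, and in 5 of the other 6 pairs the groups overlap.

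The remaining subunits of BAF-type complexes, which are not exchanged in this way or less so, were taken from a list of 20 genes, all measured, with 55 probe sets. In limma 0 of the 55 passed and 2 had an unadjusted p under 0.05 (8.18% over all probe sets), and the median log2 fold change was 0.02. The ATPase gene Smarca4, the motor of the complex, averaged 10.05 ± 0.06 with the plasmid and 9.98 ± 0.07 with the vector. The largest values in brightest probe sets were 0.20 for Smarcd1, a core subunit that contacts transcription factors, 0.16 for Bcl7a, -0.17 for Bcl7b and -0.16 for Bcl11a, a zinc finger factor found in the complex. Smarcd1 averaged 8.24 ± 0.03 with the plasmid and 8.03 ± 0.12 with the vector (limma adjusted p = 0.674). A dimmer Bcl11a probe set, 1419406_a_at, named after its values were seen, had 0.38 and did not pass (limma adjusted p = 0.407). It averaged 4.05 with the plasmid and 3.67 with the vector, near the level of unspiked controls, and the brightest Bcl11a probe set had the opposite sign. Its groups did not overlap, as was so for 6 of the 55 probe sets and for 13.2% of all probe sets.

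Genes reported as targets of the neuronal complex with Ss18l1 were 4 genes with 6 probe sets, of which 0 passed in limma and 3 had an unadjusted p under 0.05 (8.18% over all probe sets). Gap43, a growth cone protein, averaged 10.46 ± 0.09 with the plasmid and 10.14 ± 0.06 with the vector (log2 fold change 0.32, limma adjusted p = 0.316). Stmn2, a microtubule regulator of growing axons, averaged 10.49 ± 0.12 with the plasmid and 10.12 ± 0.09 with the vector in its brightest probe set (log2 fold change 0.37, limma adjusted p = 0.280). Neither gene's groups overlapped, as was so for 13.2% of all probe sets, and neither passed. The GTPase gene Rap1a had -0.10 and Ngef, a guanine nucleotide exchange factor, had -0.23, with overlapping groups.

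Among regulators known to act upstream of the switch, Ptbp1, a splicing repressor and miR-124 target, fell by 1.24 on the log2 scale (SE 0.12, limma adjusted p = 0.0180) and the phosphatase gene Ctdsp1 fell by 1.38 (SE 0.19, limma adjusted p = 0.0383) in their brightest probe sets. Neither call held without plasmid replicate 1 or any 1 of the vector arrays, where limma called 0 probe sets on the whole array (2309 to 4247 at an unadjusted p under 0.05). For Ptbp1, the other probe sets had -0.27 and 0.07 and did not pass. Rest, the repressor of neuronal genes and of the miR-124 loci, had -0.15, and its corepressor gene Rcor1 had -0.10, and neither passed (limma adjusted p = 0.892 and 0.962). Over the 6 arrays the brightest Smarcc1 probe set, 1455246_at, which did not pass, was matched most closely by Mis18a (Pearson r = 0.9999), Ercc6l (0.9991) and Mob1a (0.9979). Their log2 fold changes were -0.54, -1.16 and -0.73, none of which passed. The array held 34958 probe sets with 1 gene. Of these, 468 of other genes had r above 0.95 with 1455246_at over the same 6 arrays, which share their array sets.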

How the data were processed

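The deposited table held a log2 signal for every probe set on each array. Per the submitters' processing notes the authors used RMA, with no version named, and the chip definition is not given in the sources used here. Per the labels, cRNA was labelled from 6 ug of total RNA. The 6 columns held 45101 probe sets and were used without further normalization. Probe sets were named from the platform annotation of 2016, which gave 1 gene for 34958, several for 932 and none for 9211. All 10 symbols were found in a RefSeq gene table. No probe set was filtered out.

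The group comparison used limma 3.58.1 under R 4.3.3, a two-sided moderated test on all 6 arrays without a block, adjusted over all probe sets. Intervals of 95% are from that fit, which was tested on simulated data. There, added shifts of 0.5 and 1 log2 units were found in 10% and 67.8% of cases. The simulated noise was independent between arrays, so the array sets were not part of it. Array sets were divided at the largest gap in interquartile range. A probe set is above background where it exceeds 3.50, the highest array mean of 3 unspiked control probe sets. The number of arrays limits precision.

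The members, the gene lists and the array sets were chosen with earlier results of these data known. All probe sets of the members are named; of the other subunits, those called and the 4 with the largest change of the brightest probe set; of targets and regulators, all; and the 3 probe sets most correlated with Smarcc1. The alternatives were blocks, arrays left out, other normalizations, a filter on dim probe sets, intensity trends, 1 value per gene and a stricter threshold.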

Additional observations from a re-analysis of the deposited data

How the results depend on the processing

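The count of probe sets called depended on the fit. Over the whole array it was 121, and 673 with the replicate block, 509 with the array set as a block, 339 with the replicate 1 arrays against the others as a block, 262 with quantile normalization, 244 with cyclic loess, 215 and 229 with an intensity trend without and with robust estimation, 39 with median centring, and 0 at an adjusted p under 0.01. It ran from 0 to 352 with 1 array left out, and was 0 without both replicate 1 arrays (3732 at an unadjusted p under 0.05, in limma). Of the 22 probe sets of the exchanged subunits 1 was called, and 2 with the replicate block (1.49% of all probe sets) or with the replicate 1 arrays against the others as a block (0.752%), in both fits Smarcc1 1423416_at and 1455246_at. It was 0 with median centring, without both replicate 1 arrays, at an adjusted p under 0.01, and with the brightest probe set or the mean of probe sets per gene, and from 0 to 1 with 1 array left out. In limma, 4, 5 and 5 of 22 probe sets and 2 and 2 of 10 genes had an unadjusted p under 0.05 in those 5 settings (7.49%, 8.27%, 8.18%, 10.9% and 10.1% of all tested), and 2 to 5 of 22 with 1 array left out (5.12% to 12.2%). With the brightest probe set or the mean per gene, 165 and 110 genes passed in all.

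The replicate numbers were not taken to pair the samples, because the labels do not say that they do. Deviations from the group means correlated between same-numbered arrays with r = 0.58, 0.03 and 0.56 for replicates 1, 2 and 3. Between differently numbered arrays r ran from -0.60 to 0.34. Whether same-numbered arrays share an effect was not tested. With the replicate block, Smarcc1 1423416_at had an adjusted p of 0.0200 and 1455246_at one of 0.0274. Smarcc1 1423416_at kept its direction under all 16 alternatives that include it (-0.91 to -0.74) and passed in 9. The replicate block, the replicate 1 block, the dim filter, the intensity trends and the choice of the brightest probe set leave each log2 fold change as it was. No sign could change in those fits. Signs changed for 4 probe sets, none of which passed. Without both replicate 1 arrays Dpf1 1420529_at had -0.014 and Smarcc1 1459824_at had -0.042. With the array set as a block Ss18l1 1447700_x_at had -0.12. With 1 array left out, Dpf1 1420530_at ran from -0.052 to 0.052, Smarcc1 1459824_at from -0.025 to 0.098 and Ss18l1 1447700_x_at from -0.16 to 0.33. The other 18 probe sets kept their sign in every alternative run, which includes the fits that could not change it. The number of arrays and the spread between them limit which differences could pass.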
